A study of Mus musculus with 15 samples.

Results

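The lesional skin of mice that lack OTULIN in keratinocytes was labelled in 5 libraries, and 3 of them (replicates 5, 8 and 14, out of 15 libraries in the whole series) carried *Krt6b* under 100 CPM (counts scaled to the library total). These Krt6b-low lesional libraries were set against the 5 WT libraries across all genes. The members were selected on a measured value, the deposited CPM of *Krt6b*, so that the level of *Krt6b* and of the genes that accompany it describes the choice and is not a result. All samples were skin from 3-week-old C57BL/6 mice. The lesional and nonlesional samples came from *Otulin* fl/fl *K14-Cre* mice, in which Cre is driven by the keratin 14 promoter and deletes *Otulin* in keratinocytes and not in the other cells of the skin. The WT samples came, by the study's methods, from *Otulin* fl/fl littermates without Cre. The labels do not say whether a lesional and a nonlesional sample came from the same mouse. The study describes the profiles of a group as coming from different mice, and the labels tie no library to an animal.

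OTULIN is a deubiquitinase that cleaves linear ubiquitin chains, which the HOIP, HOIL-1L and SHARPIN complex attaches downstream of TNF receptor 1 and other innate receptors. Keratinocytes that are wounded, inflamed or driven to divide express the stress keratins 6, 16 and 17 in the interfollicular epidermis, whereas in resting skin these keratins mark mainly the hair follicle. Calgranulins S100A8 and S100A9 are made by stressed keratinocytes and by neutrophils. Type I interferon (IFN) acts through a complex that holds STAT2 and IRF9 and binds the interferon-stimulated response element in the promoters of antiviral genes.

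*Krt6b* stood at 2.55, 1.19 and 4.62 deposited CPM (5, 3 and 10 reads) in lesional replicates 5, 8 and 14, and at 3523 and 8478 in lesional replicates 2 and 11. It lay between 1.26 and 17.6 CPM in the 5 WT libraries. The nearest value above the limit belonged to a nonlesional library, replicate 3, at 221 CPM, and the limits of 50 and 200 CPM chose the same 3 lesional libraries. That the lesional label is not matched by high *Krt6b* in these libraries is set by the rule. They are called Krt6b-low lesional here after that rule only. Whether the tissue taken was lesional could not be checked from the files used here.

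The other genes of the stress response, in CPM normalised by the trimmed mean of M values (TMM) over the 15 libraries, described the same split. *Krt6a* was 322, 229 and 392 CPM in Krt6b-low lesional replicates 5, 8 and 14, against 1190, 474, 409, 261 and 381 in WT replicates 1, 4, 7, 10 and 13. *Krt16* was 7.11, 12.4 and 22.4 CPM against 91.1, 8.31, 12.1, 12.3 and 14.2. The 2 groups overlapped for both keratins, and the highest library of either was WT replicate 1. *Krt17* averaged 495 ± 91.8 CPM (SD, n = 3) in Krt6b-low lesional and 585 ± 203 (SD, n = 5) in WT skin. *S100a8* was 4.57, 2.41 and 4.38 CPM and *S100a9* 2.03, 0.402 and 5.84 CPM, against at most 3.74 and 3.88 CPM in WT, while lesional replicates 2 and 11 held between 1280 and 2720 CPM of either. Across the 23 genes of the stress keratin and hyperplasia list, the summed level ran from 770.8 to 1074 CPM in Krt6b-low lesional and from 735.9 to 2747 in WT libraries. Markers of neutrophils summed to between 9.235 and 13.62 CPM in Krt6b-low lesional, 6.127 to 27.92 in WT, and 746.5 and 2859 in the other lesional libraries.

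**Figure D1:**
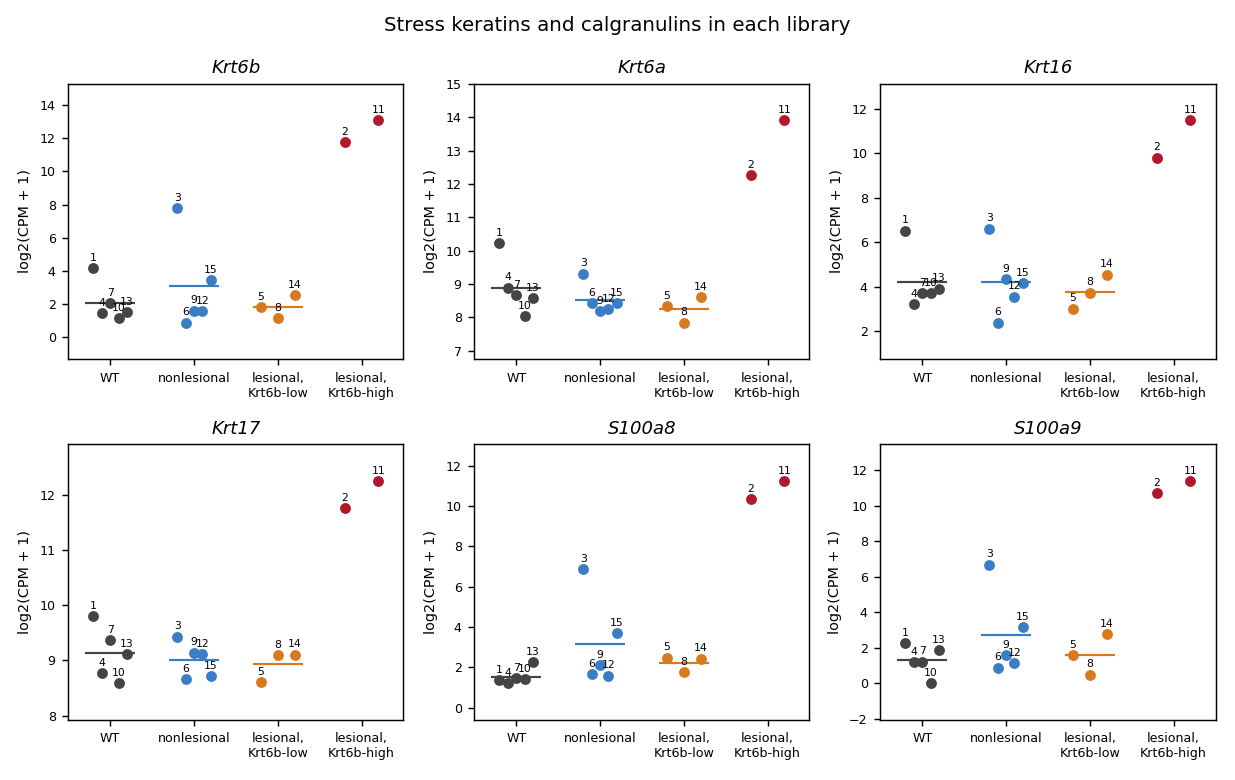
Level of 4 stress keratins and both calgranulins in each of the 15 libraries, as log2(CPM + 1), with replicate numbers beside the points and lines at the means of groups with more than 2 libraries. Lesional replicates 5, 8 and 14 sit among or near the WT points in all 6 panels, whereas lesional replicates 2 and 11 lie far above, and nonlesional replicate 3 lies above the other nonlesional libraries.

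*Otulin* itself was measured at 18.8, 25.7 and 26.8 CPM in Krt6b-low lesional skin and at 22.9, 28.0, 28.2, 12.3 and 22.8 CPM in WT skin. The groups overlapped, with a log2 fold change of 0.06 ± 0.26 (SE; unadjusted p = 0.83, edgeR quasi-likelihood test). The sign turned when WT replicate 10 (-0.10), lesional replicate 8 (-0.01) or lesional replicate 14 (-0.03) was left out. The sources used here do not say which exons are floxed, and 3′ tags come from the end of the transcript in all skin cells, so this level does not check the genotype labels. *Krt5* (1800 ± 152 CPM, SD, n = 3) and *Krt14* (890 ± 202), which mark basal keratinocytes, *Krt10* (2660 ± 1410) of the suprabasal layers and *Lor* (2780 ± 250) and *Flg* (411 ± 38.7) of the granular layer were present. In WT skin they averaged 2030 ± 246, 917 ± 321, 3460 ± 1100, 2730 ± 227 and 373 ± 68.9 CPM (SD, n = 5).

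2 of the 8 libraries compared stood apart, and the results below that moved most with either are also given without it. Lesional replicate 14 was the furthest from its nearest library (0.58 log2 units over 10216 genes, against 0.33 to 0.50 for the other 12 libraries without high *Krt6b*). It held the highest or lowest value of those 13 libraries in 36.6% of 10155 genes, where an even share would be 15.4%. In 222 genes it was lowest by at least 1 log2 unit, and in 0 was it highest by as much. *Snhg8* had 0 reads, *Pfn1*, which encodes the actin-binding profilin 1, had 1 read, and *Cox17*, a copper chaperone of cytochrome c oxidase, had 6, against at least 21.0, 17.9 and 42.5 CPM in each other library. These 3 were chosen after their values were seen, as examples of the largest gaps. The methods contradict themselves on the RNA integrity limit for including samples, no integrity value per library was used here, and the part of RNA quality was not tested. WT replicate 1 had hair genes summing to 1767 CPM against 80.78 to 223.4 in the other WT libraries, and it expressed *Xist* at 1140 CPM with 0 CPM of the Y-linked *Ddx3y*. The other 4 WT and all 3 Krt6b-low lesional libraries had *Ddx3y* between 78.3 and 112 CPM and *Xist* of at most 4.38 CPM, so sex is not balanced between the groups. Library totals ran from 1962604 to 2567138 counts over all 15 libraries.

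**Figure D2:**
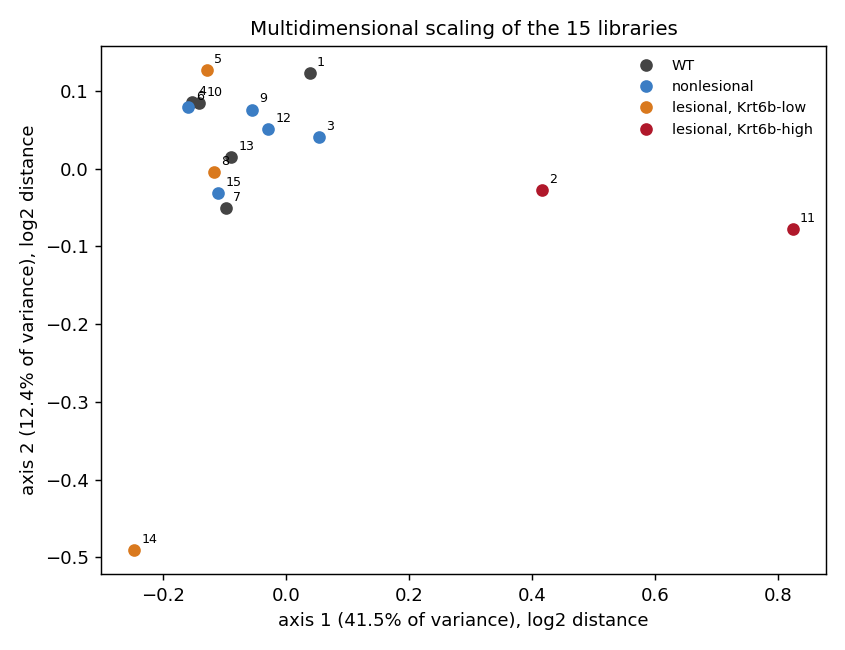
Multidimensional scaling of log2 CPM over 10216 genes, with 1 point per library, its replicate number beside it, and the share of variance on each axis. Axis 1 (41.5%) carries lesional replicates 2 and 11 away from the rest, axis 2 (12.4%) carries lesional replicate 14 away, and lesional replicates 5 and 8 lie among WT and nonlesional libraries.

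The 3 Krt6b-low lesional libraries differed in their distance from the WT libraries. Over all 3, the median distance between a Krt6b-low lesional and a WT library was 0.466 log2 units (0.344 to 0.761, 15 pairs), beside 0.476 (0.408 to 0.566, 10 pairs) among the WT libraries themselves. Lesional replicate 14 lay 0.58 to 0.761 from the WT libraries, beyond every distance among them, and WT replicate 1 (0.536 to 0.566 from the other WT libraries) set the upper end of theirs. The median distance to WT was 0.459 for lesional replicate 5 and 0.388 for lesional replicate 8. The distance among the 3 Krt6b-low lesional libraries was 0.591 (0.415 to 0.676), and that to lesional replicates 2 and 11 was 0.93 (0.667 to 1.171, 6 pairs). The nearest library of lesional replicate 8 was WT replicate 7, and that of lesional replicate 5 was nonlesional replicate 6.

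Which genes changed in Krt6b-low lesional against WT skin was asked with edgeR's quasi-likelihood test on 13415 genes. No gene passed an adjusted p of 0.05 (0 called, 0%). By DESeq2's Wald test and by limma with voom and quality weights 0 genes passed as well. An unadjusted p under 0.05 was reached by 394 genes (2.94%) in edgeR, 391 in DESeq2 and 410 in limma. Of the 394 genes, 191 were fitted higher (1.42% of the genes tested) and 203 lower (1.51%). The groups did not overlap, with all 3 lesional values above all 5 WT values, in 191 genes (1.42%), and with all below in 180 genes (1.34%). Unchanged genes would give a share of about 0.05 under an unadjusted p of 0.05, above the 2.94% found. These counts therefore do not by themselves show change. The libraries were chosen by *Krt6b*, so the p-values are conditional on that choice. Every fold change below is therefore a fitted value that did not pass the adjusted test. In whole skin, fewer cells of a type and less RNA per cell cannot be told apart.

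Lipid synthesis supplied several genes of the smallest unadjusted p among those fitted higher. Genes named on this account were picked by small p and by groups that do not overlap, so the lack of overlap is part of the choice. *Fasn* (chr11:120805846-120824547, GRCm38), the fatty acid synthase, was 216, 210 and 240 CPM in Krt6b-low lesional replicates 5, 8 and 14 and 100, 100, 130, 178 and 147 CPM in the WT libraries. Its log2 fold change was 0.76 ± 0.18 (SE, unadjusted p = 0.00055, adjusted p = 0.9994, edgeR) and stayed at 0.70 without lesional replicate 14. With no filter on low counts the adjusted p of *Fasn* was 0.039. The enzyme before it in the pathway, acetyl-CoA carboxylase *Acaca*, was 37.6, 39.3 and 54.5 CPM against 27.5, 23.2, 30.9, 27.5 and 23.9 CPM. The highest of these was lesional replicate 14, and the log2 fold change of 0.71 ± 0.19 was 0.53 without it.

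*Pcx*, mitochondrial pyruvate carboxylase, had 20.3, 19.7 and 42.8 CPM against 14 to 17.3 CPM in WT, with a log2 fold change of 0.85 ± 0.26. The other 2 libraries lay far below lesional replicate 14, and the log2 fold change was 0.40 without it. *Acat2*, cytosolic acetoacetyl-CoA thiolase at the start of sterol synthesis, was 43.7, 40.6 and 46.2 CPM against 26.8, 31.1, 32.2, 30 and 29.9 CPM (0.53 ± 0.17, and 0.49 without lesional replicate 14). The lesional values of *Acat2* differed less among themselves than from WT, which the choice by small p and no overlap favours.

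The lists behind these genes moved less. Of 18 fatty acid synthesis genes tested, 12 were fitted above 0 in Krt6b-low lesional against WT (48.7% of all genes tested were), with a median log2 fold change of 0.13 beside -0.01 over all genes. An unadjusted p under 0.05 was reached by 2 of the 18, *Fasn* and *Acaca*, where 1.42% of all genes tested were higher with such a p. *Acly*, ATP citrate lyase, which makes cytosolic acetyl-CoA, was fitted at 0.28 ± 0.15, and *Mlxipl*, the carbohydrate response factor ChREBP, at 0.36 ± 0.23. Without lesional replicate 14 the fitted value of *Mlxipl* was 0.13, while 16 of the 18 genes were above 0 with a median of 0.18. Leaving out 1 library, the fatty acid synthesis median ran from 0.08 (without WT replicate 13) to 0.20 (without WT replicate 10). The summed level of the list overlapped between the groups, at 2634 to 3170 CPM in Krt6b-low lesional libraries beside 2293 to 3017 CPM in WT. Of 22 sterol synthesis genes tested, 12 were above 0 with a median of 0.06, and 1, *Acat2*, had an unadjusted p under 0.05. The sterol synthesis median ranged from -0.05 (without WT replicate 4) to 0.10 when 1 library was left out, and was also below 0 without lesional replicate 8. In nonlesional against WT skin, which shares the WT libraries, 20 of the 22 sterol genes were above 0 with 6 of unadjusted p under 0.05 and a median of 0.19 (49.4% of all genes were above 0, and 1.85% were higher with such a p), and 17 of the 18 fatty acid genes were above 0 with 4 of such a p. In Krt6b-low lesional against nonlesional skin 2 of 22 and 5 of 18 were above 0, with 0 genes of such a p. Adipocyte markers, which share lipid enzymes, summed to 6076 to 7603 CPM in Krt6b-low lesional and 4749 to 6999 CPM in WT libraries, and their part in the result was not tested.

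The remaining genes fitted higher under the naming rule, apart from *Rtp4* of the type I IFN list, follow, and no test of a common group was run. *Tspan11*, a tetraspanin, was 27.9, 29.3 and 36.5 CPM against 15.8 to 20.6 CPM (log2 fold change 0.77 ± 0.20). *Lepr*, the leptin receptor, was 14.2, 21.3 and 14.6 CPM against 4.92 to 12.3 CPM (0.97 ± 0.30), and *Tnmd*, tenomodulin of tendon and adipose tissue, was 14.2, 16.1 and 18.5 CPM against 8.53 to 11.2 CPM (0.76 ± 0.24). *Serpinb12*, an epithelial serine protease inhibitor, had 11.7, 11.2 and 16.5 CPM against 3.06 to 8.98 CPM (1.09 ± 0.33). *Tnfrsf25*, death receptor 3 of T cells, *Ifrd2* and *Proca1* were all under 9 CPM in every Krt6b-low lesional library, with log2 fold changes of 1.55 ± 0.50, 1.13 ± 0.35 and 1.30 ± 0.41. At such levels a library holds few reads of each.

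The genes fitted lower under the naming rule were chosen by p and no overlap, so that no common theme was tested among them. *Psap* (chr10:60277627-60302597, GRCm38), the precursor of the saposins that activate lysosomal sphingolipid hydrolases, was 106, 119 and 95.4 CPM in Krt6b-low lesional replicates 5, 8 and 14 against 158, 141, 137, 146 and 201 CPM in WT. The log2 fold change was -0.56 ± 0.16 (unadjusted p = 0.0029, adjusted p = 0.9994, edgeR), and -0.48 without lesional replicate 14. *Dnase2a*, the lysosomal acid DNase, was 54.9, 43.0 and 56.9 CPM against 84.9, 73.5, 65.3, 68.9 and 83.1 CPM (-0.55 ± 0.17). Its exons overlap those of *Mast1* on the other strand, so reads of both may be counted where strand is not used. *Ugcg*, glucosylceramide synthase of the barrier, was 32.5, 42.2 and 26.3 CPM against 51.6, 55.1, 47.0, 46.1 and 53.5 CPM (-0.59 ± 0.19, and -0.44 without lesional replicate 14). In lesional replicates 2 and 11 *Ugcg* was 79.7 and 167 CPM, on the other side of the WT values.

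*Ugcg* was not followed by its list, since 8 of 18 barrier ceramide genes were above 0 with a median of -0.03, and *Ugcg* was the only 1 with an unadjusted p under 0.05. *Borcs7*, a subunit of the BORC complex that positions lysosomes, was 17.8, 16.5 and 13.6 CPM against 21.0 to 29.6 CPM (-0.65 ± 0.22). *Rab27a*, which tethers melanosomes and other lysosome-related organelles, was 8.64, 9.23 and 11.2 CPM against 14.2 to 21.0 CPM (-0.86 ± 0.25). *Bcl10*, an adaptor of NF-κB signalling with CARD proteins and MALT1, was 32.0, 32.5 and 26.3 CPM against 40.2 to 48.1 CPM (-0.55 ± 0.18). *Abhd4*, *Amn1*, *Klhl7* and the chromodomain protein gene *Cdyl* lay between -0.58 and -0.82. *Gsdma2*, a gasdermin of differentiating epithelium, was at most 3.41 CPM against 3.81 to 15.9 CPM (-1.92 ± 0.55). *Tm2d1* (-1.97 ± 0.57) rested in part on lesional replicate 14, where it was at 0 CPM. Its log2 fold change was -1.41 without that library.

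**Figure D3:**
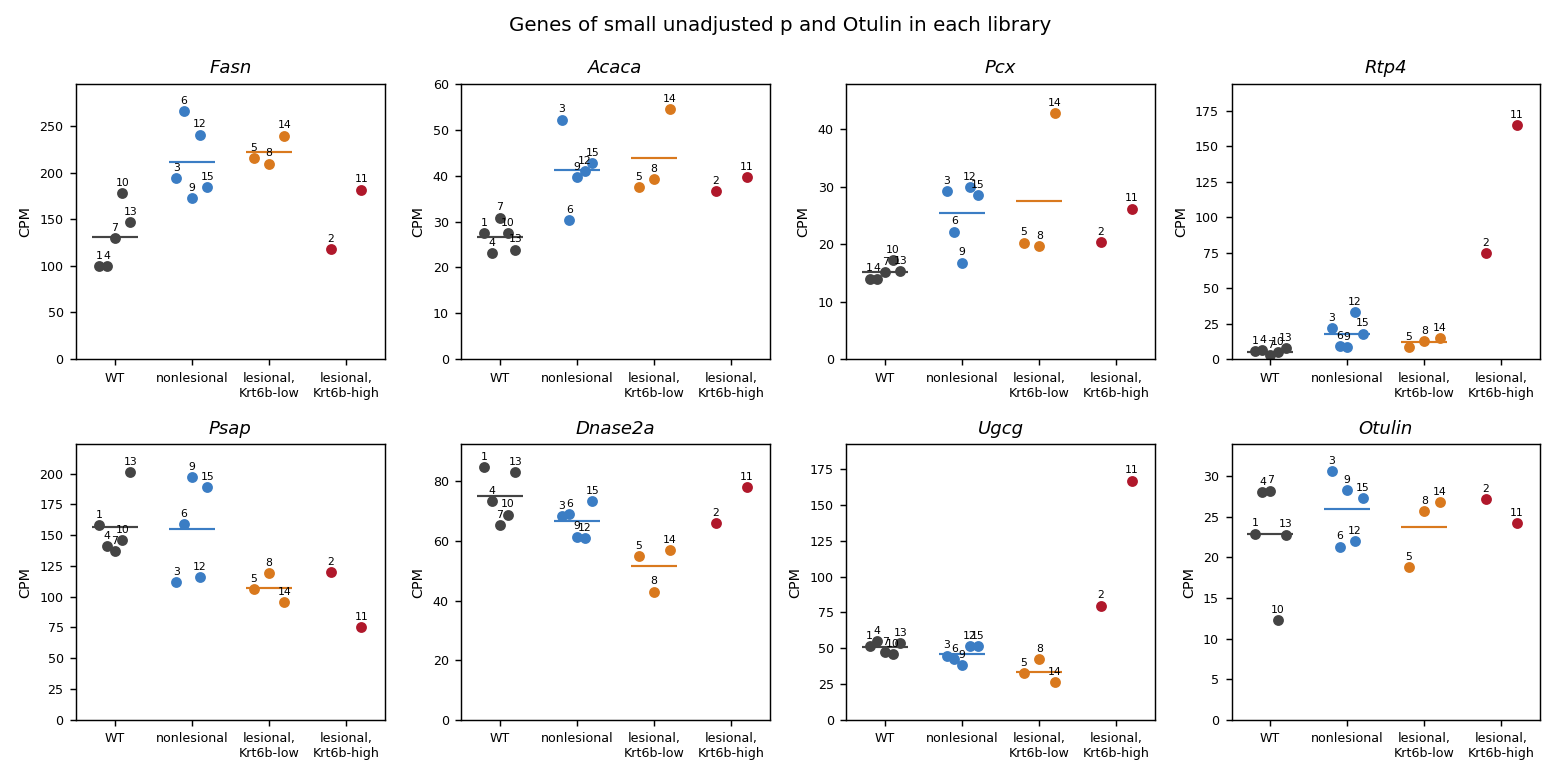
CPM of 7 genes of small unadjusted p in Krt6b-low lesional against WT skin, and of *Otulin*, in all 15 libraries, with replicate numbers beside the points and lines at the means of groups with more than 2 libraries. The genes other than *Otulin* were picked for not overlapping between WT and Krt6b-low lesional libraries, while *Otulin* overlaps, and *Pcx* shows lesional replicate 14 at 42.8 CPM above the other 2.

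With no library left out, the type I IFN list was the group with the most members of small p. Without lesional replicate 14 the fatty acid and sterol synthesis lists had more, 2 each against 1. Without WT replicate 10 the muscle list had more, 12 against 10. Of the 60 type I IFN genes, 40 had enough counts to be tested, and 37 of these were fitted above 0, with a median log2 fold change of 0.37. An unadjusted p under 0.05 was reached by 9 of the 40, all fitted higher, and 3 of the 40 did not overlap. Over all genes tested, 48.7% were above 0, 1.42% were higher with such a p, and 1.42% were higher with no overlap. The mean log2 CPM of the list was 2.99, 3.16 and 3.53 in lesional replicates 5, 8 and 14 and 2.93, 2.87, 2.90, 2.83 and 3.14 in WT replicates 1, 4, 7, 10 and 13. Lesional replicate 5 lay within the WT range, lesional replicate 8 just above its highest library (WT replicate 13), and lesional replicate 14 clear of it. Without lesional replicate 14, 29 of 41 type I IFN genes tested were above 0 with a median of 0.23, and 1 of them had an unadjusted p under 0.05. With WT replicate 1 left out as well, 30 of 40 were above 0 with a median of 0.20, and 2 had such a p.

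Motif content was looked up in RefSeq promoters (250 bases before to 50 after the start, GRCm38.p6) with the core of the interferon-stimulated response element, written as GAAA, 2 bases of any kind and GAAA, on either strand, matches that overlap included. It was present in 22 of 47 type I IFN genes with a promoter in the table (46.8%), in 3.99% of all 27025 genes there, and in 3.56% of the 9760 genes that were also tested. The window of 100 bases before to 30 after the start is shown for *Ddx60* and *Ifitm3*, which were among the 4 genes of the list with the smallest p. *Ddx60* is read on the plus strand at chr8:61927987-61928116 and *Ifitm3* on the minus strand at chr7:141010715-141010844. Capitals mark each match, which begins 53 and 19 bases before the start in *Ddx60* and at bases 3 and 20 after it in *Ifitm3*.
Ddx60: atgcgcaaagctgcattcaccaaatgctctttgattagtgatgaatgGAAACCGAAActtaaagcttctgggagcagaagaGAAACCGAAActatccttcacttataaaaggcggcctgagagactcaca
Ifitm3: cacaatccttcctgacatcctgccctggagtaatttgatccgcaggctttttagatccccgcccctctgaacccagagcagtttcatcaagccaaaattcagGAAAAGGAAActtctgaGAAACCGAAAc
A match describes these letters and does not show a bound site.

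*Rtp4*, a chaperone that restrains antiviral IFN responses, was 8.64, 12.8 and 14.6 CPM in Krt6b-low lesional replicates 5, 8 and 14 against 5.43, 6.13, 2.69, 4.65 and 7.48 CPM in WT, with a log2 fold change of 1.17 ± 0.34 (unadjusted p = 0.0033, adjusted p = 0.9994, edgeR). Its exons overlap those of *Gm45338* on the same strand, and the counting gave such reads to both. *Ddx60*, an antiviral helicase, was 8.13, 14.9 and 26.3 CPM against 8.53, 3.94, 8.95, 7.61 and 9.73 CPM (1.07 ± 0.35). The groups overlapped, lesional replicate 5 lying within WT, and the log2 fold change was 0.57 without lesional replicate 14. *Ifitm3*, a membrane protein that blocks viral entry, was 294, 359 and 463 CPM against 248, 264, 298, 265 and 314 CPM (0.42 ± 0.15, and 0.23 without lesional replicate 14). *Parp14*, an ADP-ribosyltransferase, was 35.1, 47.8 and 52.5 CPM against 34.9, 20.6, 28.6, 32.6 and 35.5 CPM (0.56 ± 0.21, and 0.45 without it). In *Ddx60*, *Ifitm3* and *Parp14* the order was the same, with lesional replicate 5 lowest and within WT and lesional replicate 14 highest.

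**Figure D4:**
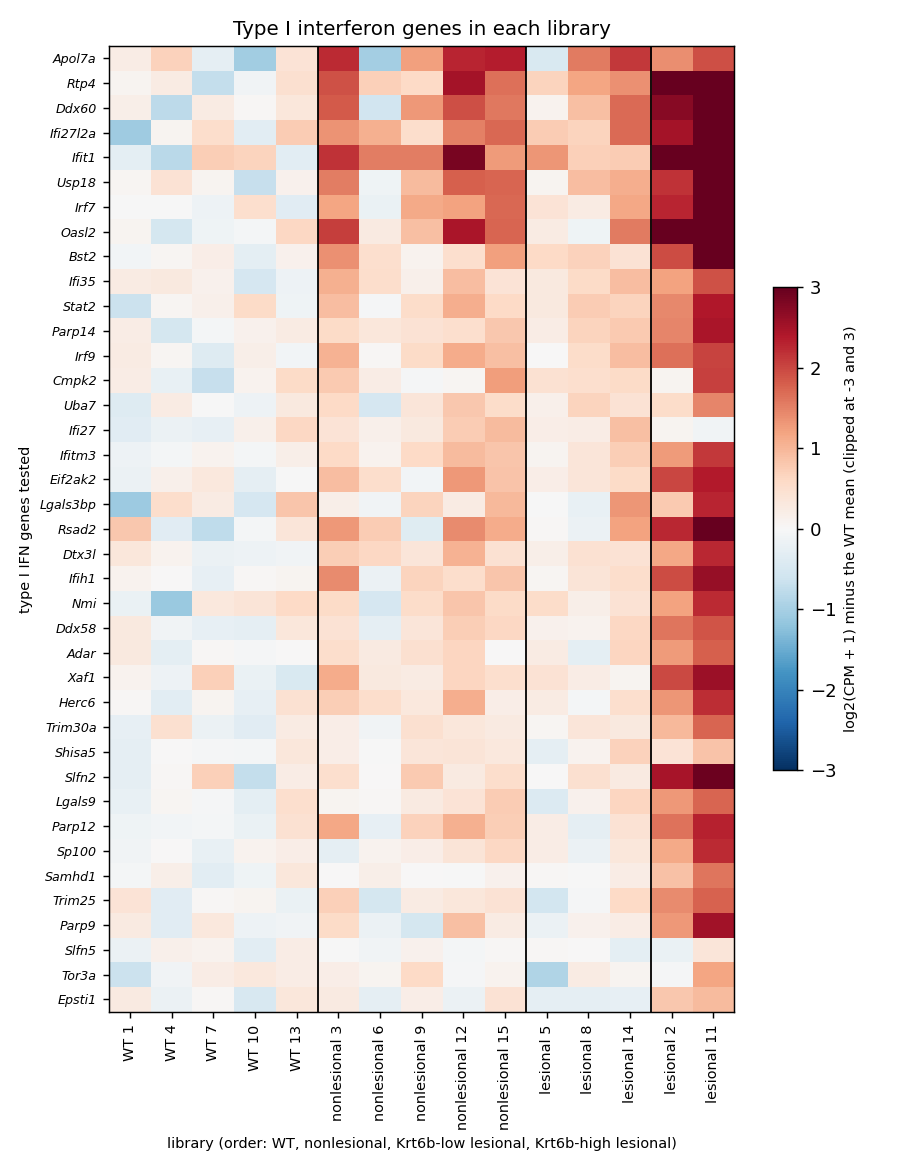
log2(CPM + 1) of 39 of the 40 type I IFN genes tested, minus the WT mean of each gene, in the 15 libraries, with genes ordered by their fitted log2 fold change in Krt6b-low lesional against WT and colours clipped at -3 and 3. Lesional replicate 5 resembles the paler WT columns, replicate 14 is the darkest of the Krt6b-low columns, and 4 of the 5 nonlesional columns and both Krt6b-high columns are darker in the top rows.

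Nonlesional skin of the same genotype gave these values beside them. The comparison of nonlesional with WT used the same 5 WT libraries, so the 2 sets of values are not independent. There, 0 of 13021 genes passed the adjusted test in edgeR and in limma, and 1, *Ifit1*, in DESeq2. In edgeR 411 genes fell under an unadjusted p of 0.05, with 241 fitted higher (1.85%) and 170 fitted lower (1.31%). Of 40 type I IFN genes, 39 were above 0 (49.4% of all genes were) with a median of 0.60, and 23 had an unadjusted p under 0.05, each fitted higher. The mean log2 CPM of the list was 3.72, 2.98, 3.25, 3.87 and 3.73 in nonlesional replicates 3, 6, 9, 12 and 15. *Rtp4* was fitted at 1.75 ± 0.38, *Ddx60* at 1.49 ± 0.39, *Ifitm3* at 0.64 ± 0.13 and *Parp14* at 0.53 ± 0.16. *Fasn* was fitted at 0.70 ± 0.16, *Acaca* at 0.63 ± 0.16 and *Pcx* at 0.74 ± 0.19. Of the genes fitted lower under the naming rule, *Borcs7* was at 0.08 ± 0.19. The others lay between -0.645 (*Gsdma2*) and -0.001 (*Cdyl*), with *Psap* at -0.02 ± 0.16 and *Amn1* at -0.35 ± 0.14.

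Krt6b-low lesional skin was then compared directly with nonlesional skin. Only the lesional side was cut by *Krt6b*, and nonlesional replicate 3 was kept at 221 CPM. The values therefore mix the lesional label with that choice and do not show what the label adds. Of 13403 genes 0 passed the adjusted test in edgeR, DESeq2 and limma. In edgeR 471 genes fell under an unadjusted p of 0.05, and 197 of them were fitted higher (1.47%) and 274 lower (2.04%) in Krt6b-low lesional skin. Of 43 type I IFN genes 4 were above 0 (50.3% of all genes were), with a median of -0.23, and 1 reached an unadjusted p under 0.05. These values depended on single libraries. Without nonlesional replicate 3, 6 of 42 type I IFN genes were above 0 with a median of -0.18. Without lesional replicate 5, 14 of 45 type I IFN genes were above 0 with a median of -0.08, and without lesional replicate 14, 2 of 44 were, with a median of -0.42 and 6 genes of such a p, all fitted lower. *Psap* was fitted at -0.53 ± 0.19, *Borcs7* at -0.73 ± 0.25, *Cdyl* at -0.82 ± 0.28 and *Ugcg* at -0.43 ± 0.19. *Fasn* was fitted at 0.07 ± 0.15 and *Acaca* at 0.09 ± 0.19, less than their standard errors.

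Antigen presentation by MHC class I, which IFN can raise, was fitted lower than in nonlesional skin in 11 of the 12 genes tested, with a median of -0.50 and 4 genes of unadjusted p under 0.05. Over all genes in that comparison 50.3% were above 0 and 2.04% were lower with such a p. In nonlesional against WT skin, 12 of 12 MHC class I genes were above 0 with a median of 0.30. Of these 3 were higher with such a p. There 13 of 14 IFN-gamma genes were above 0, with a median of 0.395 and 2 higher with such a p. Over all genes in nonlesional against WT, 49.4% were above 0 and 1.85% were higher with such a p. *H2-Q7*, a nonclassical class I gene with close paralogs, was fitted at -1.28 (unadjusted p = 0.0023, adjusted p = 0.9925, edgeR) against nonlesional and at -0.84 ± 0.57 against WT skin. By the study's methods reads had to map uniquely to be counted, so reads that fit several paralogs may be missing. *Erap1*, which trims peptides for class I, was fitted at -0.60 against nonlesional and at -0.47 ± 0.23 against WT, and at -0.18 against WT without lesional replicate 14. *Psmb8*, an immunoproteasome subunit, was at -0.25 ± 0.24 and *Tapbp*, tapasin, at 0.16 ± 0.17 against WT. Both were near 0 without lesional replicate 14, at -0.06 and -0.03. Against WT the 12 MHC class I genes had a median of -0.12 with 6 above 0, ranging from -0.27 without lesional replicate 8 (3 above 0) to -0.04 without lesional replicate 14 (4 above 0) when 1 library was left out. Without nonlesional replicate 3, which carried *Krt6b* at 221 CPM, the median against nonlesional was -0.28 with 2 of 12 above 0, and without nonlesional replicate 6 it was -0.55 with 0 above 0, the 2 ends of the range leaving out 1 library. The IFN-gamma list had a median of -0.41 against nonlesional (14 of 16 genes below 0) and of 0.01 against WT (9 of 15 above 0). Leaving out 1 library, these IFN-gamma medians ran from -0.56 (without lesional replicate 14) to -0.29 (without nonlesional replicate 12) and from -0.09 (without lesional replicate 14) to 0.15 (without WT replicate 13). In the same comparison the muscle list had 22 of 22 genes above 0, a median of 0.37 and 3 genes of unadjusted p under 0.05, where 1.47% of all genes were higher with such a p. Leaving out 1 library the muscle median ran from 0.21 (without lesional replicate 14, with 21 of 22 above 0) to 0.49 (without lesional replicate 8). In nonlesional against WT skin 12 of 22 muscle genes were above 0. Immediate early genes were below 0 against nonlesional in 13 of 14, with a median of -0.37 and 1 gene of such a p (-0.54 without lesional replicate 8 to -0.10 without nonlesional replicate 9). The part of these lists in the MHC class I and IFN values was not tested.

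Inflammatory genes were mostly too low to be tested. For this and the lists that follow, the range in brackets is that of the median when each of the 8 libraries was left out in turn. Over all genes tested against WT, 48.7% were above 0, 1.42% were higher and 1.51% lower with an unadjusted p under 0.05. Of 30 genes of the inflammation list (cytokines, chemokines, calgranulins, NF-κB inhibitors and other induced genes) 7 passed the filter against WT, with a median of -0.01 (-0.13 to 0.03), and the list summed to 524.5 to 618.3 CPM in Krt6b-low lesional and 602.2 to 705.5 CPM in WT libraries. MHC class II had a median of -0.01 over 7 genes (-0.10 to 0.16, the highest without WT replicate 13) and the T cell and Langerhans list of 0.11 over 5 genes (-0.07 without WT replicate 4 to 0.24), with 0 genes of unadjusted p under 0.05 in either. Of 13 macrophage genes, 5 were above 0 with a median of -0.11 (-0.21 without WT replicate 10 to 0.21 without WT replicate 13), and *Aif1*, which encodes the macrophage protein IBA1, was the 1 of unadjusted p under 0.05. Without lesional replicate 14 the macrophage list held 0 such genes. Cell death and TNF signalling had 6 of 17 genes above 0 with a median of -0.17 (-0.17 to -0.09, the last without WT replicate 4), and linear ubiquitin factors 4 of 6 with a median of 0.05 (-0.04 without lesional replicate 8 to 0.07). Except for cell death and TNF signalling, the sign of each of these medians turned with single libraries.

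The epidermis and the other tissues of the biopsy gave these list values. Epidermal differentiation had 18 of 37 genes above 0 and a median of -0.01 (-0.10 without WT replicate 4, with 10 of 37 above 0, to 0.05 without WT replicate 13). Without both libraries that stand apart, 7 of 37 were above 0. Proliferation had 21 of 26 genes above 0 with a median of 0.18 and 0 genes of unadjusted p under 0.05 (0.01 without WT replicate 1 to 0.39 without WT replicate 4). Muscle genes were above 0 in 21 of 22 with a median of 0.38 (0.18 without lesional replicate 14 to 0.50 without WT replicate 10), and 0 had an unadjusted p under 0.05. Without WT replicate 10, 12 of the 22 had such a p, all higher, where 253 of 13287 genes did, and without lesional replicate 8 there were 4, where 227 of 13853 genes did. The muscle list summed to 55990, 49620 and 71980 CPM in lesional replicates 5, 8 and 14, where the WT range was 32040 to 63100 CPM. The highest of all 15 was lesional replicate 14. Globin and other erythroid genes had a median of 0.42 with 1 of 6 of unadjusted p under 0.05 (0.11 without lesional replicate 14, with 0 such genes, to 0.62 without lesional replicate 5, with 4 such genes). Fibroblast and matrix genes had a median of 0.01 (-0.10 without WT replicate 10 to 0.18 without WT replicate 13), endothelial genes of -0.03 (-0.14 without WT replicate 1 to 0.09 without lesional replicate 5) and melanocyte genes of 0.21 (0.05 without WT replicate 1, the lowest WT library for that list, to 0.27), with 0 members of unadjusted p under 0.05. With 1 library left out the fibroblast list held at most 2 such genes in either direction. Sebaceous gland genes had a median of -0.15 over 13 (-0.31 without WT replicate 4 to -0.09 without WT replicate 1), adipocyte genes of 0.10 over 17 (0.01 without WT replicate 7 to 0.25 without lesional replicate 8) and the mitochondrial genome of 0.06 over 7 (-0.02 without WT replicate 13 to 0.14). Hair genes had a median of -0.50 over 5, of which WT replicate 1 set the WT level (-3.50 over the 13 genes tested without lesional replicate 14 to -0.15 without WT replicate 1). The part of muscle, blood and hair in the results above was not tested.

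Immediate early genes, which respond within minutes to stress or tissue handling, were below 0 in all 14 tested, with a median of -0.32 and 1 gene, *Dusp1*, of unadjusted p under 0.05, where 48.7% of all genes were above 0 and 1.51% were lower with such a p. *Dusp1*, a MAP kinase phosphatase, was fitted at -0.56 ± 0.19, *Jun* at -0.36 ± 0.17, the heat shock gene *Hspa1b* at -0.51 ± 0.30 and *Btg2* at -0.29 ± 0.19. The list summed to 629.1, 669.3 and 415.5 CPM in lesional replicates 5, 8 and 14, and to between 598.2 and 918.7 CPM in WT libraries. Replicates 5 and 8 lay within WT. Without lesional replicate 14, 5 of 14 immediate early genes were above 0 with a median of -0.17, *Dusp1* was at -0.36, *Hspa1b* at -0.19 and *Btg2* at -0.16. Of 12 genes of serine synthesis and the ATF4 response, 9 were above 0 with a median of 0.21 (0.16 to 0.28 leaving out 1 library).

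**Figure D5:**
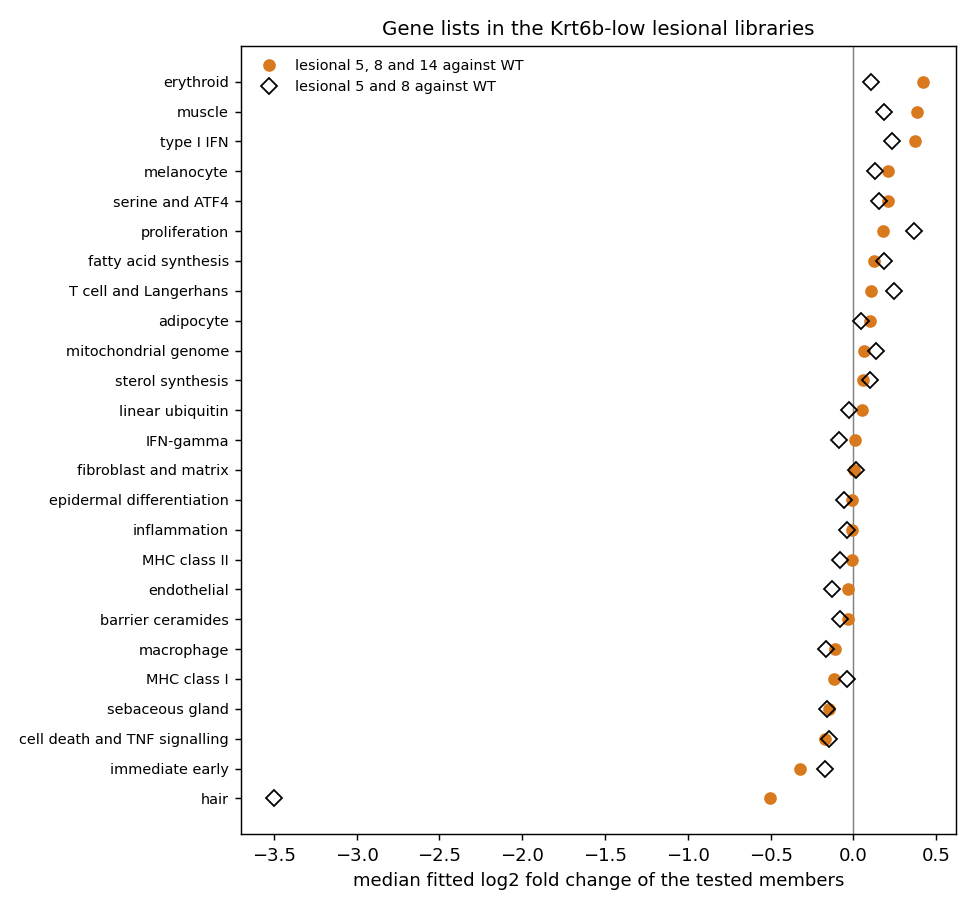
Median fitted log2 fold change against WT of each gene list with at least 5 members tested, the stress keratin list left out, for the 3 Krt6b-low lesional libraries (filled) and for lesional replicates 5 and 8 only (open). The open symbol of the type I IFN list is at 0.23 and the filled one at 0.37, the hair list moves to -3.50 as 13 in place of 5 of its genes then pass the filter, and the erythroid list moves from 0.42 to 0.11.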

How the data were processed

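RNA from mouse skin was sequenced with the QuantSeq 3′ FWD kit. By the study's methods and the submitters' processing notes, the authors clipped adaptors with cutadapt 2.10, mapped reads with subread-align to GRCm38 and spike-ins, retained primary matches of high quality with SAMtools, and deposited the counts that featureCounts 2.0.1 assigned to exons, with reads on several genes counted for each. No strand option is listed, the annotation release is not given in the sources used here, and PCR copies were not removed. The authors also deposited CPM, each count scaled to its library total, which were used only to choose the Krt6b-low lesional libraries (limit 100 CPM). ERCC rows (92, summing to 0) were dropped.

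The main test was edgeR 4.0.16 (R 4.3.3) on the counts of the groups compared, with TMM, filterByExpr, robust quasi-likelihood fits and Benjamini-Hochberg adjustment at 0.05. Standard errors were taken as the size of the log2 fold change over the root of F. DESeq2 1.42.0 and limma 3.58.1 were alternatives. Levels are TMM CPM over 15 libraries, and logs use a prior count of 2. Symbols and coordinates came from GENCODE M21 and NCBI tables, with promoters from RefSeq (GRCm38.p6). The fits were tested on simulated data. The members, the 27 gene lists and the tests were chosen with earlier results of these data known. Genes were named by rule: *Otulin* and the stress genes, the 12 of smallest unadjusted p in each direction with a symbol and no overlap (since fewer than 10 were called), and at most 4 per list. List members are named with values only where their list is described in detail. Totals of 1962604 to 2567138 counts limit the precision of genes under 10 CPM, and intervals between libraries cover no more than the samples at hand. No libraries were identical. 1 gene of the type I IFN list, counted in the list's values, is not reported singly here.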

Additional observations from a re-analysis of the deposited data

Results flagged for a closer look

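In groups of 5, the WT and nonlesional libraries were screened for a single library far from the others by Dixon's criterion, over 70 combinations of level and group. Chance flags about 1 in 20 groups, or 3.5 of 70, and 18 were flagged. That rate holds for independent, normally distributed values. Most levels here were unlogged CPM, and single genes screened also belong to lists screened. Flags can therefore repeat, and the excess over chance was not measured. The 3 Krt6b-low lesional libraries are too few for this screen.

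WT replicate 1 was the highest WT library for the summed stress keratin and hyperplasia list (2747 CPM, others 735.9 to 1269), the hair list (1767, others 80.78 to 223.4), the neutrophil list (27.92, others 6.127 to 11.97), *Krt6b* (17.1, others 1.27 to 3.13), *Krt6a* (1190, others 261 to 474) and *Krt16* (91.1, others 8.31 to 14.2). It was the lowest for the melanocyte list (210.2, others 301.5 to 331.5). WT replicate 13 was the highest for the type I IFN list (1364, others 1089 to 1128) and for *S100a8* (3.74, others 1.31 to 1.79).

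Nonlesional replicate 3 was the highest nonlesional library for the stress keratin and hyperplasia list (2108 CPM, others 807.0 to 1027), the barrier ceramide list (2213, others 1556 to 1689), the neutrophil list (50.57, others 8.10 to 19.16), *Krt6b* (220, others 0.853 to 10.1), *Krt6a* (637, others 290 to 345), *Krt16* (97.6, others 4.26 to 19.3), *S100a8* (115, others 2 to 11.9) and *S100a9* (102, others 0.853 to 7.91). It was the lowest for the melanocyte list (224, others 300.5 to 330.2).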

How the results depend on the processing

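The count of genes called in Krt6b-low lesional against WT skin was 0 in edgeR and in all alternatives run except that with no filter on low counts, which gave 2 (*Fasn* higher, *Akr1c18* lower). Against nonlesional skin it was 0 in all alternatives run. Nonlesional against WT gave 1 with DESeq2, 18 with no filter, and 0 to 5 when 1 library was left out, the 5 without nonlesional replicate 6. The median of the type I IFN list ranged from 0.23 to 0.48 when 1 library was left out, and was 0.20 without lesional replicate 14 and WT replicate 1, an alternative chosen after seeing the data. Signs were checked for *Otulin*, the stress genes with a fit and the genes picked by small p and no overlap. Of list members, only those named for type I IFN, MHC class I, fatty acid synthesis and immediate early genes were checked. Among these genes, the fitted sign reversed for *Otulin* (-0.10 to 0.19 leaving out 1 library, -0.023 without both libraries that stand apart), *Krt16* (-1.49 to 0.24, above 0 without WT replicate 1) and *Tapbp* (-0.025 to 0.37, and -0.021 without both). The cause was not tested. *Krt6b* limits of 50 and 200 CPM chose the same libraries. No paired analysis was run because the groups share no replicate numbers. Whether consecutive numbers mark sets of samples is not given in the labels, so no block on them was fitted, and such a fit could change these counts.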
